A study of Mus musculus with 6 samples.

Results

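Complement is the set of plasma and cell-surface proteins that tags microbes and damaged cells for removal, and 9 of its genes are described here in the mouse kidney: C1qa, C1qb, C1qc, C3, C4b, Cfb, Cfi, C8a and C3ar1. They are 9 of the 24422 genes counted and 9 of the 53 complement genes that the count tables held under the names looked for. They were chosen by their counts in these same libraries, as the system of C8a, a gene with low counts in the knockout, beside components known from inflammation. Their differences between the groups are therefore given as a description and support no test. RNA sequencing was performed on whole kidneys of C57BL/6 mice at postnatal day 60, with 3 control and 3 TfR1KO;KspCre libraries. All mice had an iron-sufficient diet of 220 ppm. Controls were wild type. In TfR1KO;KspCre mice (genotype Tfr1f/f;KspCre) both copies of the gene of transferrin receptor 1, Tfrc, carried exons flanked by loxP sites, and Cre was driven by the Ksp-cadherin (Cdh16) promoter, which is active in the distal nephron and collecting duct and not in every cell of a kidney. The TfR1KO;KspCre libraries are called knockout libraries, and the comparison asks how transcripts differ when the receptor is deleted in these segments.

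C1q, built from the products of C1qa, C1qb and C1qc, recognises antibody and dying cells and starts the classical pathway, in which C4 and C2 are cut to make an enzyme that cleaves C3. Factor B, from Cfb, builds the C3-cleaving enzyme of the alternative pathway, factor I, from Cfi, cuts the active fragments of C3 and C4 into inactive forms, and C8a encodes a chain of C8, part of the membrane attack complex. Most plasma complement is made in the liver, C1q is made mainly by macrophages and related myeloid cells, and kidney tubules are known to make some components themselves, among them C3 and factor B.

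In the knockout libraries C8a fell from 55.8 ± 17.6 to 2.19 ± 1.01 counts per 1000000 counts of a library (CPM; mean ± SD, n = 3 each), while the C1q genes, C3, C4b and C3ar1 rose between 8.17-fold and 12.8-fold. Cfb stood at 332 ± 83.1 CPM in controls and 173 ± 54.8 CPM in knockout libraries, and Cfi at 5.21 ± 4.74 and 18.0 ± 2.13 CPM, without passing the threshold. By edgeR's quasi-likelihood test over all genes, 6 of the 9 genes were called higher and 1 lower at a Benjamini-Hochberg adjusted p under 0.05. Of the 15171 genes tested, 17.2% were called, 10.6% higher and 6.64% lower. All 9 genes had no overlap between the groups, against 46.0% of the genes tested. As the genes were selected on this contrast, nothing is read from these counts. In bulk tissue, fewer cells of a type and less RNA per cell cannot be told apart.

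Library totals ranged from 11501053 to 21001341 counts, the lowest being knockout 3. Tfrc, the targeted gene, stood at 138, 168 and 62.0 CPM in controls 1 to 3 and at 214, 86.0 and 40.6 CPM in knockouts 1 to 3, a log2 difference of -0.11 (SE 0.62) that was 0.14 with libraries scaled by size alone. Its counts over the whole gene therefore do not check the genotype labels. On the first principal component of log2 CPM, with 69.4% of the variance, controls lay between -72.6 and -53.2, knockouts 2 and 3 at 88.6 and 82.1, and knockout 1 between the groups at 9.67. Control 2 stood apart from the other libraries in sex-linked transcripts, with 52 counts of Xist and 1451 of Ddx3y against at least 10458 and at most 4, and the labels give no sex. Markers of the labelled tissue were present in every library, none of the 12 proximal tubule and 6 other nephron markers being at 0.

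The C1q genes lie side by side on the minus strand of chromosome 4 in mm9, C1qb at 136436044 to 136442102, C1qc at 136445719 to 136448980 and C1qa at 136451832 to 136454718, within 18675 bases. C1qa, which encodes the A chain, stood at 19.6, 12.3 and 20.6 CPM in controls 1 to 3 and at 81.5, 271 and 114 CPM in knockouts 1 to 3. C1qb, the B chain, had 22.3, 16.7 and 22.8 CPM in controls and 90.5, 278 and 137 CPM in knockouts. C1qc, the C chain, had 14.8, 10.4 and 16.2 CPM in controls and 59.7, 218 and 101 CPM in knockouts. For each chain every knockout library was above every control, knockout 2 was the highest and knockout 1 the lowest of the knockouts, and control 2 the lowest of all 6 libraries. The log2 fold changes were 3.15 (SE 0.49) for C1qa, 3.03 (SE 0.43) for C1qb and 3.19 (SE 0.49) for C1qc. Without knockout 2 they were 2.48, 2.46 and 2.53, without knockout 1 they were 3.45, 3.32 and 3.52, and without control 2 they were 2.94, 2.89 and 3.01.

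The 3 chains kept nearly the same proportions in every library. C1qa gave 31.3% to 35.3% of the summed C1q counts, C1qb 36.3% to 42.3% and C1qc 25.8% to 28.6%. In group means the share of C1qa was 33.4% ± 1.85 in controls and 34.3% ± 1.64 in knockouts, that of C1qb was 40.0% ± 2.10 and 38.1% ± 1.57, and that of C1qc was 26.6% ± 0.550 and 27.6% ± 1.60 (SD, n = 3 each). The groups overlapped in the share of each chain. The summed C1q level stood at 56.7, 39.4 and 59.6 CPM in controls and 232, 767 and 352 CPM in knockouts.

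The upstream sequences of C1qb, C1qc and C3, which rose, and of C8a, which fell, are shown as examples of genes that moved in opposite directions in the same kidneys. RefSeq promoters on GRCm38.p6 matched 5 of the 9 genes, namely C1qb, C1qc, C3, C3ar1 and C8a, and the 250 bases before the start were searched on both strands for 7 short motifs. C1qb (chr4:136886201-136886450, minus strand) and C1qc (chr4:136892915-136893164, minus strand) are printed 5′ to 3′ along the gene, with capitals marking GAGGAA, the core bound by ETS factors such as PU.1, or its complement.
C1qb: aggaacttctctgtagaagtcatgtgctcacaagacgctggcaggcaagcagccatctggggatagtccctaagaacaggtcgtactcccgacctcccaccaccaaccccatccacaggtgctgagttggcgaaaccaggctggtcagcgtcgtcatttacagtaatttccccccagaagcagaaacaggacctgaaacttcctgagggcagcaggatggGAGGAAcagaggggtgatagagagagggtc
C1qc: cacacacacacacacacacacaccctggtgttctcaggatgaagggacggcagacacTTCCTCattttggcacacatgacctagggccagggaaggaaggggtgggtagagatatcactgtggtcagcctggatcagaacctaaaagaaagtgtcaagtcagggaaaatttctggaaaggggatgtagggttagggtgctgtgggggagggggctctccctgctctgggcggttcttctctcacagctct
The match lay at positions -30 to -25 from the start of C1qb on the gene's strand and at positions -193 to -188 from that of C1qc on the opposite strand. GAGGAA was in 23.3% of the 32851 promoters of the table, so its presence in both is a description only.

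**Figure D1:**
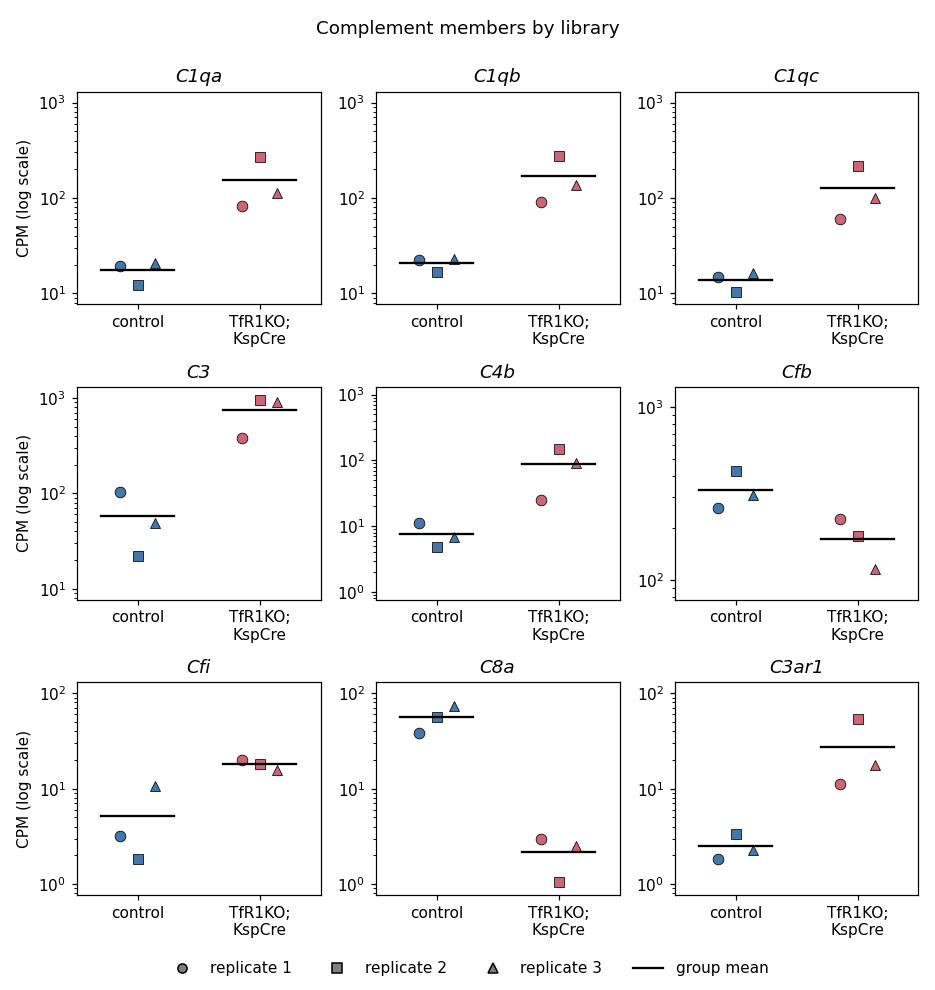
CPM of each of the 9 complement genes in each library, on log axes that differ between panels, with controls in blue, knockouts in red, a symbol for each replicate number and a bar for the group mean. C8a lay between 38.3 and 73.4 CPM in controls and at or under 2.99 CPM in knockouts, while the C1q genes, C3, C4b and C3ar1 lay higher in every knockout library than in any control.

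C3, the component on which all pathways converge, lies on chromosome 17 at 57343397 to 57367559 (mm9, minus strand). It stood at 102, 22.2 and 49.0 CPM in controls 1 to 3 and at 377, 958 and 897 CPM in knockouts 1 to 3. The lowest knockout was above the highest control, although the controls themselves differed 4.62-fold. The log2 fold change was 3.68 (SE 0.65), and it was 4.37 without control 1, the control with the highest C3, 3.29 without control 2 and 3.99 without knockout 1. The C3 promoter (chr17:57228137-57228386, minus strand) is shown with capitals marking TTGCNNAA, a motif of C/EBP factors, at positions -45 to -38 from the start.
C3: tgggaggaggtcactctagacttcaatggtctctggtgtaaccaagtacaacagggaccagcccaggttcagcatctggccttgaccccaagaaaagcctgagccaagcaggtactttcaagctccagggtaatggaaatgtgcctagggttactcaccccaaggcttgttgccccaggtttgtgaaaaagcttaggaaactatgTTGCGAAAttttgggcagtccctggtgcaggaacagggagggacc
This motif was in 9.56% of all promoters in the table.

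C4b, which encodes a form of C4, the component cleaved after C1, lies at 34865325 to 34880827 on chromosome 17 (mm9, minus strand). It stood at 11.2, 4.76 and 6.78 CPM in controls and at 24.8, 151 and 91.0 CPM in knockouts, again without overlap and with the lowest knockout value in knockout 1. The log2 fold change was 3.55 (SE 0.68), and it was 2.92 without knockout 2 and 3.98 without knockout 1. Limma-voom did not call it. C4a, the neighbouring paralog whose product is linked in mice to the sex-limited protein, had 1.84, 1.70 and 2.10 CPM in controls and 1.13, 1.66 and 2.15 CPM in knockouts. The groups overlapped for C4a, with a log2 difference of -0.20 (SE 0.35; adjusted p = 0.692 by edgeR's quasi-likelihood test), which was 0.072 when libraries were scaled by size alone. Only 83.5% of the 100-base words of the longest C4b transcript were unique, the rest being shared with C4a, and since only uniquely mapped reads were counted, reads from shared stretches can be missing from both genes.

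Cfb, at 34993319 to 34999463 on chromosome 17 (mm9, minus strand), encodes factor B. It stood at 262, 424 and 311 CPM in controls and at 224, 178 and 115 CPM in knockouts. The groups did not overlap, but the gap between the lowest control and the highest knockout was small beside the spread within either group. The log2 difference was -0.94 (SE 0.30) and did not pass the threshold by edgeR's quasi-likelihood test. DESeq2's Wald test called it, as did the fit without knockout 1, where the difference was -1.19. Without control 2, the control with the highest Cfb, the difference was -0.74 and was not called. Cfb shared most of its transcript with Gm20547, an annotated readthrough gene over Cfb and C2, only 19.0% of its 100-base words being unique, so its counts depend on how the authors' annotation treats that gene.

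Cfi, at 129539655 to 129578246 on chromosome 3 (mm9, plus strand), encodes factor I. It stood at 3.18, 1.82 and 10.6 CPM in controls and at 20.0, 18.3 and 15.8 CPM in knockouts. The knockouts were close together while the controls differed 5.83-fold, control 3 being the highest. The log2 difference of 1.79 (SE 0.61) did not pass the threshold by edgeR's quasi-likelihood test, and DESeq2's Wald test and limma-voom called it. Without control 3 the difference was 2.84, and without control 2 it was 1.37.

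C8a encodes the alpha chain of C8, the component whose alpha and gamma chains pair with a separate beta chain and which inserts into target membranes with C9. The gene lies at 104488284 to 104549003 on the minus strand of chromosome 4 in mm9, and all of its 100-base words were unique to it. Gm17662, on the opposite strand, overlaps its span but shares 0 exonic bases with it. C8a had 770, 949 and 1223 counts in controls 1 to 3 and 61, 21 and 33 counts in knockouts 1 to 3. This gave levels of 38.3, 55.8 and 73.4 CPM for the controls and of 2.99, 1.05 and 2.53 CPM for the knockouts. Every control lay above every knockout. C8a fell by 4.67 on the log2 scale (SE 0.44), and the control mean was 18.7, 53.0 and 22.1 times the level in knockouts 1, 2 and 3. The difference was -5.02 without knockout 1, -4.33 without knockout 2 and -4.69 without control 2, and knockout 1, which lay between the groups in the principal component, was near knockout 3 in C8a.

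The C8a promoter (chr4:104876399-104876648, minus strand) is shown with capitals marking 3 motif matches.
C8a: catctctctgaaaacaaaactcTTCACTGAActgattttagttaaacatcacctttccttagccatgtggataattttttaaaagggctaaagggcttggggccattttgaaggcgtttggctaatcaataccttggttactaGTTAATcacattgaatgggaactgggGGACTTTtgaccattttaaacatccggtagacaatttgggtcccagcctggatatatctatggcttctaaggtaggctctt
From the 5′ end they are TTCNNNGAA, a motif of STAT factors, at positions -228 to -220 from the start, GTTAAT, a core of HNF1 sites, at -107 to -102, and the complement of AAAGTCC, a core of HNF4 sites, at -81 to -75. HNF1 and HNF4 factors are known regulators of liver and proximal tubule genes. TTCNNNGAA was in 7.02% of all promoters in the table, GTTAAT in 6.43% and AAAGTCC in 3.58%. Of the 5 promoters, only that of C8a held each of these 3 motifs, while that of C3ar1 held GGNNNTTCC, a kappa-B-like motif in 15.7% of all promoters, and AAANNGAAA, a core of interferon response elements in 9.37%. A match of letters is not a binding site.

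Of the partner chains of C8, only the gamma chain had enough counts to be tested. C8g, the gamma chain, had 12.4, 17.7 and 13.0 CPM in controls and 11.9, 5.47 and 5.82 CPM in knockouts, a log2 difference of -0.89 (SE 0.35) that did not pass the threshold (adjusted p = 0.112 by edgeR's quasi-likelihood test). Without knockout 1 C8g was called lower, at -1.36 (adjusted p = 0.0112 by the same edgeR test). In knockout 1 C8g was close to the control level, whereas C8a was not. The ratio of C8a counts to C8g counts was 3.08, 3.15 and 5.64 in controls and 0.252, 0.193 and 0.434 in knockouts. C8b, the beta chain, whose gene lies 11130 bases from C8a in the opposite orientation, had at most 4 counts in any library and was not tested. Of the other terminal components, C9 had at most 3 counts and Hc, which encodes C5, at most 9 in any library. C6 and C7 had log2 differences of 2.79 (SE 0.86; adjusted p = 0.0641) and 1.66 (SE 0.75; adjusted p = 0.152) by edgeR's quasi-likelihood test, and were 1.37 and 0.37 without knockout 2. C6 was called by DESeq2's Wald test, with libraries scaled by size alone and without knockout 1. Transcripts of the C8 beta chain, C9 and C5 were thus at a few counts in both groups, too few to show a difference at this depth.

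Genes outside the list with a mean log2 CPM of at least 0 were ranked by the likeness of their log2 CPM to that of C8a over the 6 libraries. The most alike were Pitpnc1, Adprm, 1110032F04Rik, Fam149b and Fam228b, with Pearson correlations of 0.997, 0.994, 0.994, 0.992 and 0.991. These correlations rest on 6 libraries in 2 separate groups, and are given as a description only. The differences were smaller than that of C8a, from -0.37 for Adprm to -2.10 for 1110032F04Rik on the log2 scale.

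C3ar1, at 122797156 to 122806179 on chromosome 6 (mm9, minus strand), encodes the receptor for C3a, the small fragment released when C3 is cleaved, and is known on myeloid cells. It stood at 1.84, 3.35 and 2.28 CPM in controls and at 11.3, 53.9 and 17.7 CPM in knockouts. As with C1q, knockout 2 was the highest and knockout 1 the lowest of the knockouts. The log2 fold change was 3.47 (SE 0.64), and 2.54 without knockout 2. It was not called by limma-voom.

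Of 45 further complement genes listed, 44 were in the tables and 32 were tested, of which 9 rose and 1 fell, against 10.6% and 6.64% of all genes tested. The median log2 difference of the 32 was 1.31, beside 0.021 over all genes tested. Among the receptors, 4 of 6 rose, namely C5ar1, a receptor for C5a, by 2.72 (SE 0.59), and the integrin chains Itgam, Itgax and Itgb2, which form complement receptors 3 and 4, by 3.32 (SE 0.71), 3.83 (SE 0.50) and 2.53 (SE 0.55). Without knockout 2 these were 1.98 for C5ar1 and 2.20, 3.26 and 1.84 for the integrin chains. These are genes of myeloid cells, and 96.3% of the 100-base words of Itgax were unique. Among the proteases of the classical and lectin pathways, C1ra and C1s1, which encode the enzymes of the C1 complex, rose by 1.64 (SE 0.45) and 2.13 (SE 0.52), while C1rl, a C1r-like protease, fell by 1.40 (SE 0.32). Without knockout 2, C1ra and C1s1 had log2 differences of 0.94 and 1.45. C1ra shared sequence with C1rb, 65.9% of its words being unique.

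Cd93, a membrane protein once described as a C1q receptor, rose by 1.40 (SE 0.28), Cfp, which encodes properdin, the stabiliser of the alternative pathway enzyme, rose by 1.59 (SE 0.41), and C4bp, which encodes a C4-binding inhibitor, rose by 2.24 (SE 0.54). C4bp did so from 4, 5 and 7 counts in controls to 47, 20 and 13 counts in knockouts, the smallest counts of any complement gene called. Adjusted p-values of these 10 genes ran from 0.0271 for Itgax to 0.0493 for C1ra by edgeR's quasi-likelihood test. Limma-voom called 3 of the 10, Cd93, C1rl and Itgax, and did not call C5ar1, Itgam, Itgb2, C1ra, C1s1, Cfp or C4bp. The 5 membrane regulators did not pass the threshold, their adjusted p-values by edgeR's quasi-likelihood test running from 0.281 for Cd55 to 0.874 for Cd46. Cr1l, the main rodent membrane inhibitor of C3 cleavage, had 57.6, 67.2 and 50.5 CPM in controls and 53.3, 61.2 and 56.3 CPM in knockouts, a log2 difference of -0.038 (SE 0.15), which was 0.24 with libraries scaled by size alone.

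**Figure D2:**
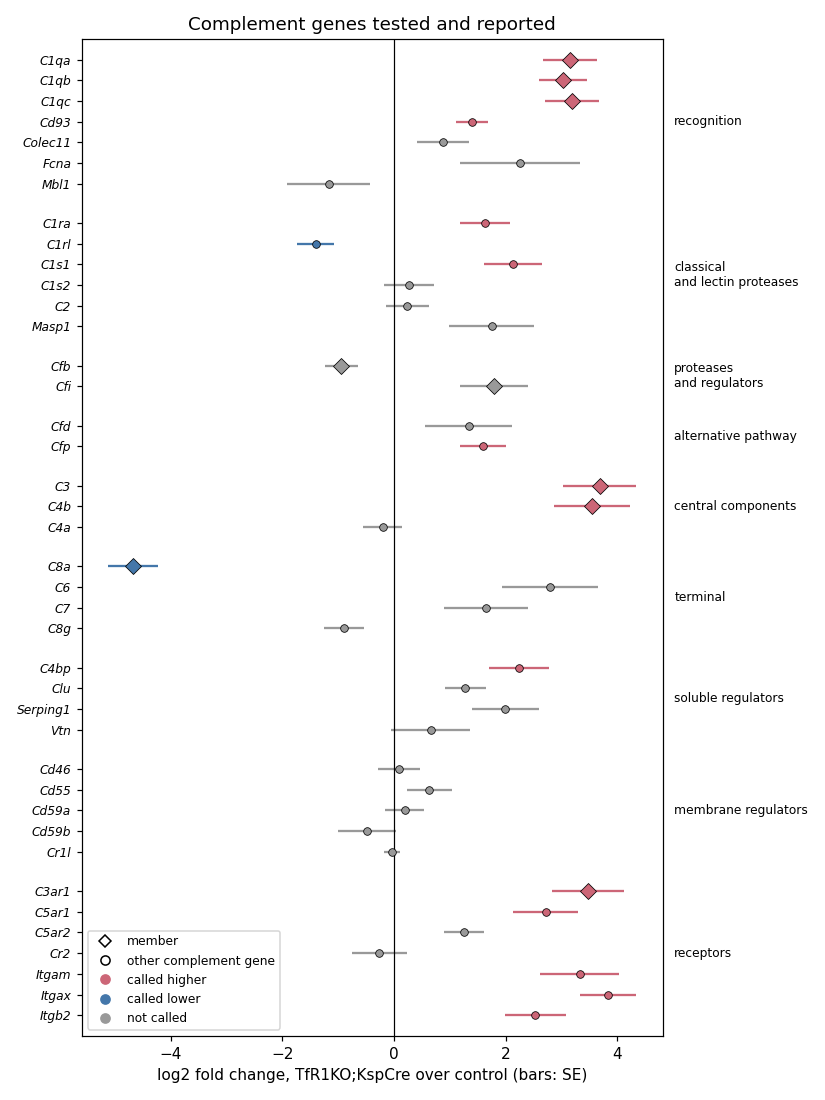
Log2 fold change of knockout over control for the complement genes tested and reported here, grouped by role, with SE bars, diamonds for the 9 genes chosen and circles for the others, coloured by call. C8a at -4.67 lies farthest to the left, and the C1q genes, C3, C4b and C3ar1 lie to the right, between 3.03 and 3.68.

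Levels of different genes were compared per length, as CPM per kilobase of the longest transcript. This covered the 38 complement genes that were tested and matched the GENCODE M1 annotation. C1s1, C1s2 and C5ar2 were tested but not matched, so the ranks leave them out. In controls Clu, which encodes clusterin, an inhibitor of the terminal complex, had the highest mean level at 287 ± 127 CPM per kilobase. Cfb at 121 ± 30.2 and Cfd, which encodes the protease factor D, at 101 ± 23.9 followed and did not differ beyond their spread. C8a ranked 11 in controls at 15.4 ± 4.85 CPM per kilobase, close to C1qb, C1qa, C8g, C1qc and C3, which ranked 9, 10, 12, 13 and 14 between 11.3 and 18.9 and did not differ from it beyond their spread. C8a ranked 35 in knockouts at 0.606 ± 0.280 CPM per kilobase (SD, n = 3 each). C1qb, C1qa, C3 and C1qc then ranked 5 to 8, between 105 and 155 CPM per kilobase, with SDs from 62.2 to 97.4 that leave their order unsettled. Cfb ranked 9 in knockouts at 62.8 ± 19.9 CPM per kilobase. Cfb had 95.1, 154 and 113 CPM per kilobase in controls 1 to 3, above C3 at 20.0, 4.32 and 9.55. In knockouts 1 to 3 Cfb had 81.6, 64.8 and 41.9 CPM per kilobase and C3 73.4, 187 and 175, so C3 was the higher in knockouts 2 and 3 and Cfb in knockout 1. Only 19.0% of the 100-base words of Cfb were unique, against 100% for C3. The levels and ranks of Cfb therefore depend on how Gm20547 was treated in counting.

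Markers of other cells moved with these genes. Of 10 macrophage markers, 9 rose and none was at 0 in any library. Their median log2 difference was 2.70, and 2.09 to 2.99 with each library left out in turn. Their summed level was 189 to 209 CPM in controls and 492 to 1692 CPM in knockouts. Knockout 2, which had the highest C1q and C3ar1 levels, also had the highest macrophage sum. Divided by that sum, C1q was 0.272, 0.209 and 0.299 in controls and 0.471, 0.453 and 0.557 in knockouts. This gap rested on Csf1r, a myeloid growth factor receptor, which had a log2 difference of 0.28 and was the single macrophage marker not called, and which made up 47.1% to 62.1% of the sum in controls but 11.4% to 21.4% in knockouts. Over the other 9 markers, a choice made after seeing the data, C1q was 0.550, 0.551 and 0.565 of the sum in controls and 0.599, 0.517 and 0.628 in knockouts. The groups then overlapped, with knockout 2 below every control. These 9 are the markers called higher in the same contrast, so the choice itself draws the groups together, and nothing is read from the overlap. Over the same 9 markers C3ar1 was 1.78%, 4.68% and 2.16% of the sum in controls and 2.92%, 3.64% and 3.16% in knockouts, again with overlap and with control 2 the highest library. The part of these cells in the higher C1q and C3ar1 levels was not tested.

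Of 12 proximal tubule markers, 9 fell, none was at 0, and their summed level was 15362 to 21445 CPM in controls and 2443 to 7351 CPM in knockouts. Per 1000 CPM of that sum, C8a stood at 2.49, 2.60 and 3.65 CPM in controls and at 0.407, 0.336 and 1.03 CPM in knockouts, without overlap. The sum is mostly made of markers that fell less than C8a, and Slc22a7, an organic anion transporter in the same list, fell by 4.83 (SE 0.60), which is no less than C8a fell. Cfb, per 1000 CPM of the same sum, was 17.0, 19.8 and 15.4 CPM in controls and 30.5, 56.7 and 47.2 CPM in knockouts, the opposite order to its CPM. Which cells made C8a or Cfb transcripts was not measured in whole kidney.

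**Figure D3:**
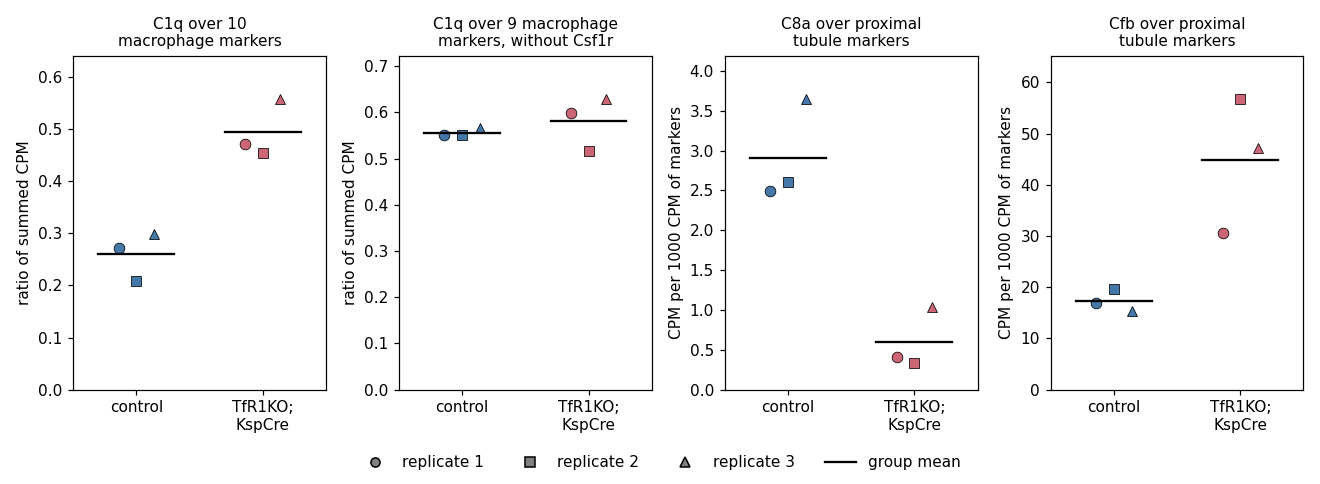
Ratio of summed C1q CPM to summed macrophage marker CPM with and without Csf1r, and C8a and Cfb CPM per 1000 CPM of summed proximal tubule markers, in each library, with controls in blue, knockouts in red and a bar for the group mean. The C1q ratio lay higher in every knockout only with Csf1r in the sum and overlapped between groups without it, at 0.550 to 0.565 against 0.517 to 0.628, while C8a ratios lay lower in knockouts and Cfb ratios higher.

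Liver transcripts were examined because C8 is known as a liver product. Of 12 hepatocyte markers 8 were tested, and they did not pass the threshold of edgeR's quasi-likelihood test, with 5 at an unadjusted p under 0.05. The summed level of the 12 was 212 to 658 CPM in controls and 71.2 to 199 CPM in knockouts. Ahsg, Serpina3k and Cps1 were at 0 in at least 1 library. Of the 8 tested, 7 had a log2 difference below 0, while Fga was above it at 0.82 (SE 0.57). The summed level of the 12 was highest in control 2, at 658 CPM. It was 483 CPM in control 3, the library with the highest C8a. Control 3 had 74.9 CPM of Alb against 8.01 and 7.64 CPM in controls 1 and 2. Apob, which encodes the main protein of low-density lipoprotein, had 145, 511 and 203 CPM in controls and 109, 74.9 and 24.3 CPM in knockouts. The log2 difference of C8a was -4.43 without control 3. The part of liver transcripts in the C8a level was not tested.

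**Figure D4:**
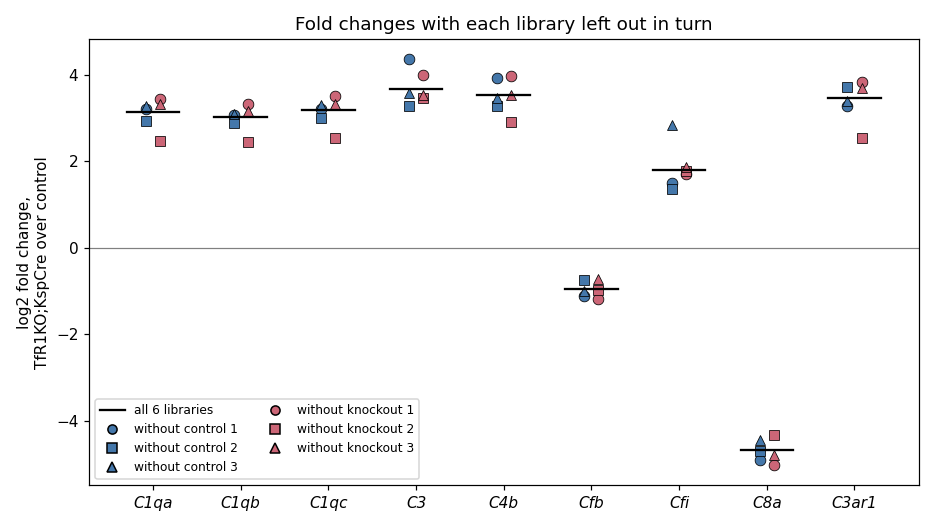
Log2 fold change of knockout over control for the 9 complement genes with all 6 libraries (bar) and with each library left out in turn (blue symbols for controls, red for knockouts, shape for the replicate number). C8a stayed between -5.02 and -4.33 and each other gene kept its sign, while Cfi moved between 1.37 and 2.84.

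The sign of each of the 9 differences was the same in all 15 alternatives, among them each library left out in turn. The calls were less stable than the sizes. Leaving out any control, or knockout 3, left 0 of the 9 genes called by edgeR's quasi-likelihood test, although 8 or 9 had an unadjusted p under 0.05 each time, and 8 of the 9 were called without knockout 1. With all 6 libraries, DESeq2's Wald test called 9, and limma-voom called 6, gaining Cfi and losing C4b and C3ar1. The calls over all genes shifted too. With all 6 libraries edgeR called 2612 of 15171 genes, DESeq2's Wald test 4882 and limma-voom 2030. Without knockout 1 edgeR called 5332 of 15494, and with any 1 control left out it called 0.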

How the data were processed

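RNA sequencing of poly-A libraries (TruSeq) from 3 control and 3 TfR1KO;KspCre kidneys was analysed, with groups and replicate numbers taken from the sample titles. The authors deposited unnormalized read counts for each gene, in a table per group. According to the submitters' processing notes and the study's methods, they called bases with CASAVA 1.8.2, trimmed reads with Trimmomatic, aligned them to mm9 with TopHat2 2.0.11, and counted uniquely mapped reads with HTSeq. The gene annotation and strand setting are not given in the sources used here, so counts of overlapping genes and of near-identical copies are uncertain. Both tables held the same 24422 genes.

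Counts were analysed with edgeR 4.0.16 in R 4.3.3, using TMM scaling, filterByExpr (minimum count 10, minimum total 15, leaving 15171 genes) and the quasi-likelihood test in its legacy form over all 6 libraries with no covariate. Adjustment was by Benjamini-Hochberg across the genes tested, and a call is an adjusted p under 0.05. CPM values are TMM-scaled, and log2 CPM used a prior count of 2. The code was tested on simulated data. Replicates differed by 55.9 to 132 chi-square units per degree of freedom, so each library counted as 1 replicate. The p-values measure the spread between these samples. Alternatives were other scalings, other filters, DESeq2 1.42.0, limma-voom (limma 3.58.1), the newer quasi-likelihood form, the replicate number as a block, and each library left out in turn.

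The 9 genes, the complement and marker lists, the motifs and the tests were chosen with earlier results of these data known. Genes named are the 9, other complement genes called or within the same complex, the 5 genes most like C8a, markers where a result is set beside them, and Tfrc. Genes named beyond these, such as Cr1l, Cfd, C6, C7, C9, Hc and Clu, were chosen after their values were seen. A gene of the list is counted among the genes tested and is not reported here. Of the 53 complement genes found, 49 matched GENCODE M1 on mm9, which gave coordinates and transcript lengths. Promoter sequences are from RefSeq on GRCm38.p6.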

Additional observations from a re-analysis of the deposited data

How the results depend on the processing

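The number of genes called over all genes was 2612, and it was 4882 by DESeq2's Wald test and 0 to 5332 with each library left out in turn. Leaving out any control gave 0, where 4270 to 4823 genes had an unadjusted p under 0.05 by edgeR's quasi-likelihood test, 5332 without knockout 1, 73 without knockout 2 and 2 without knockout 3. Of the 9 complement genes chosen, 7 were called, and 0 to 8 with each library left out, with 4 of them called without knockout 2. Of the other complement genes, 10 were called, 3 by limma-voom and 0 to 19 with each library left out, with 19 called without knockout 1, 1 without knockout 2 and 0 without knockout 3 or any control. The cause of these shifts was not tested, and a group of 3 left with 2 libraries also has fewer degrees of freedom. Of all calls, 61.4% were higher, and 81.8% when libraries were scaled by size alone, which moved the median log2 difference of all genes from 0.021 to 0.29 and the log2 difference of C4a from -0.20 to 0.072, of Tfrc from -0.11 to 0.14 and of Cr1l from -0.038 to 0.24. The share was 53.3% by DESeq2's Wald test, 52.3% without knockout 1 and 91.8% without knockout 2. Upper quartile scaling gave 0.043 for Cr1l. With a library left out, 4 differences that did not pass the threshold also changed sign, with ranges of -0.14 to 0.065 for Cr1l, -0.96 to 0.29 for Tfrc, -0.10 to 0.41 for Cd46 and -0.25 to 0.57 for Csf1r. Leaving Csf1r out of the macrophage sum, chosen after seeing the data, moved the knockout minus control log2 ratio of C1q from 0.94 to 0.061 and that of C3ar1 from 1.17 to 0.30.

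With the replicate number as a block, 0 genes were called, 0 of the 9 chosen and 0 of the other complement genes, while 5432, 9 and 14 had an unadjusted p under 0.05 by edgeR's quasi-likelihood test. The labels give the samples a number and name no pairs. Correlations of same-numbered deviations were -0.13, 0.012 and 0.21, and with 3 libraries a group they cannot settle whether the numbers pair the samples.

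Counting error is small for the 9 genes except C8a in knockouts, with as few as 21 counts in a library, and Cfi and C3ar1 in controls, with as few as 31 and 37. With 3 libraries a group, the spread between libraries sets the precision.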
